A study of Mus musculus with 12 samples.

Results

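The HoxC and HoxD genes described here were 10 protein-coding Hox genes, Hoxc4, Hoxc5, Hoxc6, Hoxc8 and Hoxc9 on chromosome 15 and Hoxd1, Hoxd3, Hoxd4, Hoxd8 and Hoxd9 on chromosome 2. They were found by symbol and taken by Ensembl identifier from a table of 55141 genes. Gastruloids are aggregates of mouse embryonic stem cells (129/SVEV background) that elongate and form an anterior to posterior axis in culture. Each aggregate was seeded with 300 cells, given a pulse of CHIR99021, an agonist of Wnt signalling, from 48 h for 24 h, and kept in N2B27 medium until collection at 120 h. All gastruloids were enclosed in a dextran-PEG hydrogel, either at 72 h (early) or at 96 h (late), and were released for bulk polyadenylated RNA sequencing. With 1.0 mM and 1.5 mM as the gel concentrations, this gave 4 groups of 3 libraries, each from about 30 pooled gastruloids, with totals of 23011791 to 27609422 counts. Early embedding therefore also means a longer time in the gel, and these cannot be told apart. Replicate 1 of the 72 h group in 1.5 mM gels stood apart from its group: chi-square per degree of freedom over genes was 66.6 and 111 against its own replicates and 9.23 to 46.0 in the other pairs of replicates, so the fold changes by embedding time in 1.5 mM gels and across both gels are also given without it. Levels, count ratios and ratios between genes include it.

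Hox genes encode homeodomain transcription factors that give cells their position along the body axis. They lie in 4 clusters, and the genes at the 3′ end of a cluster are generally activated before, and further anterior than, those toward the 5′ end, an order known as collinearity. Genes of the same number in different clusters are paralogues derived from an ancestral gene. Hoxd1, Hoxd3 and Hoxd4 are at the 3′ end of HoxD, Hoxd8 and Hoxd9 are central, and Hoxc4 is the most 3′ gene of HoxC. In mouse embryos, groups 3 and 4 act in the hindbrain, neck and anterior somites, and groups 8 and 9 further back in the trunk. Because whole gastruloids were pooled, fewer cells that express a gene and less RNA per cell cannot be told apart.

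All coordinates are on mm10, on the plus strand for each of the 10 genes. In the annotation of the deposited table, Hoxd9 spans chr2:74697727-74700208, Hoxd8 chr2:74704615-74707933, Hoxd3 chr2:74711927-74748271, Hoxd4 chr2:74721978-74729160 and Hoxd1 chr2:74762980-74765142. Hoxc9 spans chr15:102976439-102985099, Hoxc8 chr15:102990607-102993821, Hoxc6 chr15:103009573-103011881, Hoxc5 chr15:103013815-103017429 and Hoxc4 chr15:103018934-103036852. The span of Hoxd4 lies inside that of Hoxd3. In the GENCODE M21 annotation these genes share 388 exonic bases on the same strand, of 4191 for Hoxd3 and 2948 for Hoxd4. Gm28230, a further gene on the same strand, shares 2225 exonic bases with Hoxd3 and 1154 with Hoxd4. Both also share 347 bases with Hoxd3os1 on the opposite strand. How reads in shared exons were assigned in these counts was not given in the sources used here. The split of reads between Hoxd3 and Hoxd4 is therefore uncertain. The part of their reads given to Gm28230, or to no gene, is also not known.

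The sequence just upstream of the starts of 4 HoxD genes is shown, from RefSeq (GRCm38.p6, plus strand, without bases inside the annotated gene). The promoter table held 6 of the 10 members, all 5 HoxD genes and Hoxc4. Capitals mark TTTATG or TTTATA, motifs bound by the caudal-type factors Cdx, on either strand. They also mark AGGTCA or GGGTCA on either strand, half-sites of retinoic acid receptors, which bind paired copies. In Hoxd3 a TTTATG and an AGGTCA on the opposite strand overlap, so their capitals run together.
Hoxd1, chr2:74762730-74762979: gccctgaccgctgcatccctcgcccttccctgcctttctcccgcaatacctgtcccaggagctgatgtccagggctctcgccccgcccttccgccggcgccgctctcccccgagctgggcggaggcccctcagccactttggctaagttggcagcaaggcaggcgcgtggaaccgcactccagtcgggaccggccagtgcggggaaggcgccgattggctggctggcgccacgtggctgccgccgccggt
Hoxd3, chr2:74711743-74711926: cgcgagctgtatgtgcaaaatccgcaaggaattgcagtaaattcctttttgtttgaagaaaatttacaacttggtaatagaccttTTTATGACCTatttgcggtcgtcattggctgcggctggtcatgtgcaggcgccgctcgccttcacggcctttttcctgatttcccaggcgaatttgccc
Hoxd4, chr2:74721728-74721977: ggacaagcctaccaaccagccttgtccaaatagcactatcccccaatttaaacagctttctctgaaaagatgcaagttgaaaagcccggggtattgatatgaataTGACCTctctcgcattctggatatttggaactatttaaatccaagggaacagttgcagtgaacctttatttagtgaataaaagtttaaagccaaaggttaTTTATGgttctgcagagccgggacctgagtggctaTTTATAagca
Hoxd8, chr2:74704365-74704614: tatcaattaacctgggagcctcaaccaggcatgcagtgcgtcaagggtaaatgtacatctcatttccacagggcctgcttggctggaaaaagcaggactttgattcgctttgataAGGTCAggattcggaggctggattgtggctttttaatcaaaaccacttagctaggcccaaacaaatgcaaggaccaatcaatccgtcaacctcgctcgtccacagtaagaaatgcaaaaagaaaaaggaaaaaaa
These stretches hold 24 CG dinucleotides at Hoxd1, 11 at Hoxd3, 3 at Hoxd4 and 6 at Hoxd8. That of Hoxd1 overlaps an exon of the antisense non-coding gene Haglr, that of Hoxd4 lies within transcripts annotated to Hoxd3 and Hoxd4, and those of Hoxd3 and Hoxd8 lie within transcripts of Hoxd3os1. Over the full window of 300 bases, from 250 before to 50 after the RefSeq start, Cdx motifs were found at Hoxd3 and Hoxd4, which held 1 and 3 matches, and of all 32851 promoters 22.9% held at least 1. Single retinoic acid receptor half-sites were found at Hoxd3, Hoxd4, Hoxd8 and Hoxc4, with 1 match each, and 27.5% of all promoters held at least 1. No match to either was present at Hoxd1 or Hoxd9. These matches are letters in a window and were not set against any binding data.

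Across both gels, embedding at 72 h was accompanied by lower levels of the 5 HoxD genes than embedding at 96 h. Within 1.5 mM gels alone, Hoxd3, Hoxd4 and Hoxd8 passed the test, Hoxd1 did not, and Hoxd9 was too low to pass the filter on low counts. Hoxd3, the most abundant of the 10, was 12.5-fold lower at 72 h across both gels, Hoxd8 7.03-fold, Hoxd4 5.58-fold, Hoxd9 2.69-fold and Hoxd1 2.52-fold (edgeR quasi-likelihood test, 6 against 6 libraries, adjusted p between 1.59e-07 and 0.00298). The HoxC genes were close to the limit of detection: over all 12 libraries they gave between 20 counts (Hoxc9) and 90 counts (Hoxc4) each. Of the 6 members that passed the filter on low counts in the fit across both gels, 6 were called lower at 72 h at adjusted p under 0.05 and a change of more than 2-fold, and 0 higher. Of all 16388 genes tested there, 2.29% were called lower. The median log2 fold change over all genes was -0.01. Hoxc4, Hoxd8 and Hoxd9 passed the filter through the 96 h libraries, whereas Hoxd1, Hoxd3 and Hoxd4 also passed it in a fit of 72 h libraries alone, so the count of 6 among those that passed is a description. For 6 of the 10 members, Hoxc4 and the 5 HoxD genes, every 72 h library lay below every 96 h library of the same gel in both gels. Levels in CPM (counts relative to the TMM-scaled library size) were used for this. Of the 21065 genes that averaged 0.05 CPM or more, 6.08% did so.

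**Figure D1:**
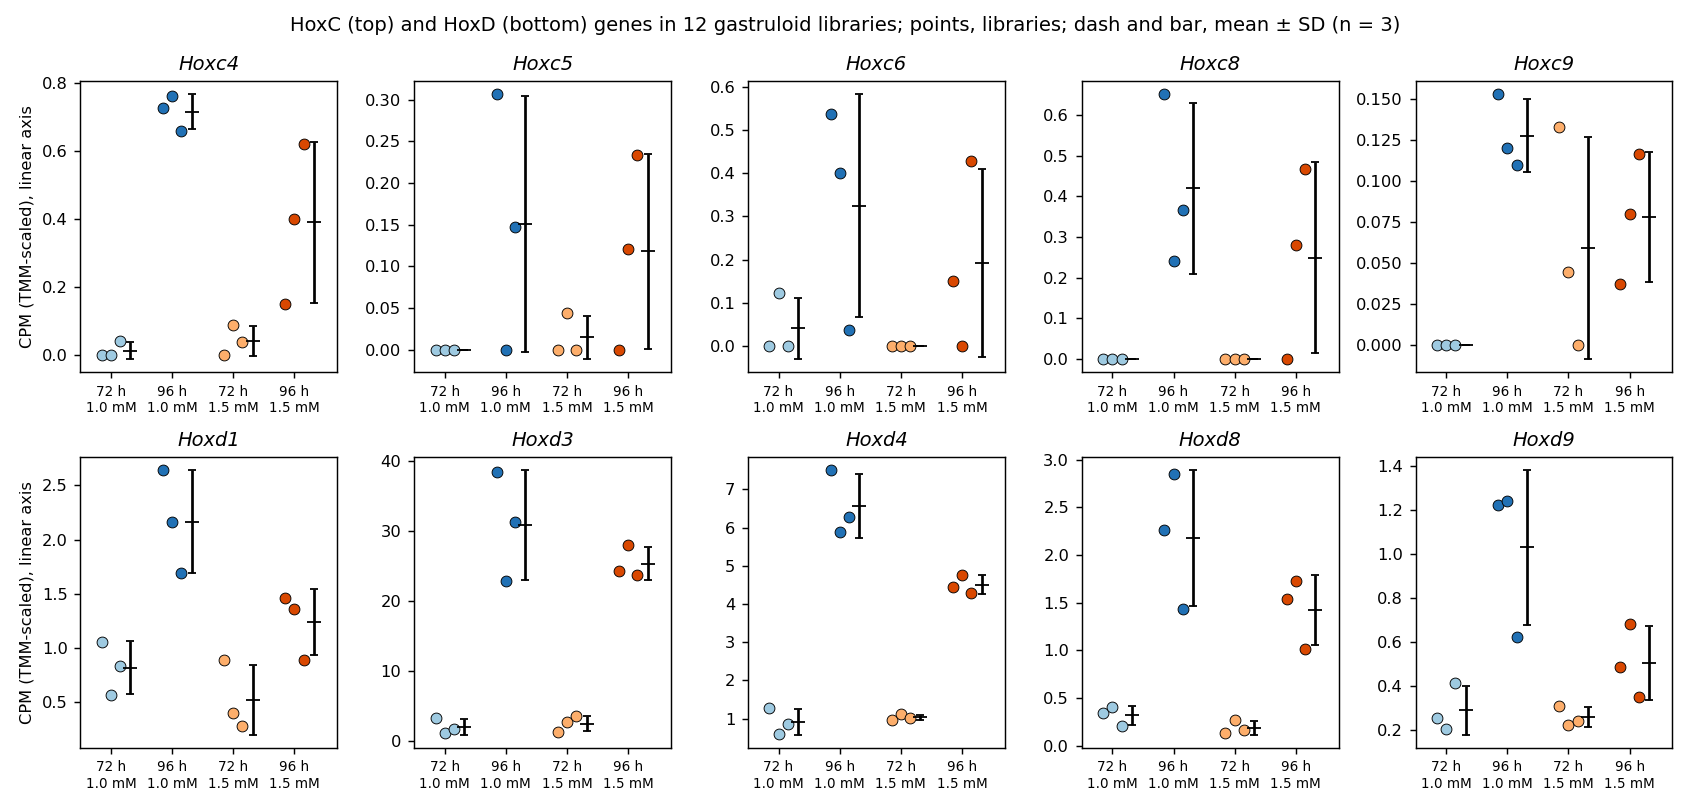
Level of each HoxC gene (top) and HoxD gene (bottom) in CPM (linear axes that differ between panels) in the 4 groups of embedding time and gel; points are libraries, and the dash and bar give the mean ± SD (n = 3). For Hoxd3 the 72 h libraries lie between 1.06 and 3.49 CPM and the 96 h libraries between 22.8 and 38.5 CPM, while the HoxC panels stay below 0.8 CPM and hold many libraries at 0.

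Hoxd1, the most 3′ gene of HoxD, measured 1.06, 0.571 and 0.832 CPM at 72 h in 1.0 mM gels and 2.64, 2.17 and 1.69 CPM at 96 h. The corresponding levels in 1.5 mM gels were 0.888, 0.400 and 0.284 CPM at 72 h and 1.46, 1.36 and 0.895 CPM at 96 h. The 1.0 mM groups were well separated, but in 1.5 mM gels replicate 1 at 72 h and replicate 3 at 96 h nearly met. The log2 fold change of 72 h over 96 h was -1.39 ± 0.31 (SE, adjusted p = 0.0159) in 1.0 mM gels and passed the test. For 1.5 mM gels the value was -1.25 ± 0.42 (adjusted p = 0.0654), of similar size but not past the threshold. Without replicate 1 of the 72 h group in 1.5 mM gels, it was -1.86 (adjusted p = 0.00989).

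Hoxd3, a group 3 gene with roles in the cervical vertebrae, showed the largest difference of the HoxD members. At 72 h it measured 3.26, 1.06 and 1.75 CPM in 1.0 mM gels, against 38.5, 22.8 and 31.4 CPM at 96 h. The values in 1.5 mM gels were 1.29, 2.63 and 3.49 CPM at 72 h and 24.3, 28.1 and 23.7 CPM at 96 h. The highest 72 h library, at 3.49 CPM, was far below the lowest 96 h library, at 22.8 CPM. The log2 fold change was -3.93 ± 0.31 in 1.0 mM gels (adjusted p = 7.05e-05) and -3.36 ± 0.25 in 1.5 mM gels (adjusted p = 0.000543). Ordered by log2 fold change in the fit across both gels, Hoxd3 was the 12th most reduced of 16388 genes.

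Hoxd4, which patterns the hindbrain and anterior vertebrae, measured 1.27, 0.612 and 0.873 CPM at 72 h in 1.0 mM gels and 7.51, 5.90 and 6.28 CPM at 96 h. With 1.5 mM gels it measured 0.977, 1.11 and 1.01 CPM at 72 h and 4.46, 4.77 and 4.28 CPM at 96 h. All 72 h libraries lay well below all 96 h libraries in both gels. The log2 fold changes were -2.83 ± 0.26 (adjusted p = 0.000134) in 1.0 mM gels and -2.12 ± 0.19 (adjusted p = 0.000763) in 1.5 mM gels.

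Hoxd8, a trunk gene of the central part of the cluster, measured 0.339, 0.408 and 0.208 CPM at 72 h in 1.0 mM gels and 2.26, 2.85 and 1.43 CPM at 96 h. Libraries of 1.5 mM gels held 0.133, 0.267 and 0.162 CPM at 72 h and 1.54, 1.72 and 1.01 CPM at 96 h. Its 72 h values rested on 3 to 10 counts per library, yet stayed below all 96 h values. The log2 fold changes were -2.75 ± 0.38 (adjusted p = 0.00147) and -2.90 ± 0.40 (adjusted p = 0.00312) in 1.0 and 1.5 mM gels. Without replicate 1 of the 72 h group in 1.5 mM gels, the values there were -3.05 for Hoxd3, -2.09 for Hoxd4 and -2.72 for Hoxd8, and each passed the test.

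Hoxd9, the most 5′ member on this cluster, measured 0.254, 0.204 and 0.416 CPM at 72 h in 1.0 mM gels and 1.23, 1.24 and 0.625 CPM at 96 h. For 1.5 mM gels the levels were 0.311, 0.222 and 0.243 CPM at 72 h and 0.487, 0.682 and 0.350 CPM at 96 h. Every 72 h library was below every 96 h library of its gel, by a small margin in 1.5 mM gels. In 1.0 mM gels its log2 fold change was -1.80 ± 0.43 (adjusted p = 0.0225). It did not pass the filter in 1.5 mM gels, where its summed counts were 18 at 72 h and 39 at 96 h, a ratio of 96 h over 72 h of 1.94 (95% exact interval 1.084 to 3.602). Intervals of this kind, here and below, cover counting error only. In edgeR with no filter on low counts, Hoxd9 in 1.5 mM gels was at -0.96 ± 0.52 (adjusted p = 0.288) and was not called.

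The size of the difference did not follow the order of the genes along the cluster. From 3′ to 5′, the log2 fold changes across both gels were -1.33 ± 0.26 for Hoxd1, -3.64 ± 0.24 for Hoxd3, -2.48 ± 0.18 for Hoxd4, -2.81 ± 0.27 for Hoxd8 and -1.43 ± 0.31 for Hoxd9, so the values were smaller in size at both ends of this set than in its middle. Without the library that stood apart they were -1.55 for Hoxd1, -3.53 for Hoxd3, -2.51 for Hoxd4, -2.74 for Hoxd8 and -1.55 for Hoxd9. Haglr, a non-coding gene on the opposite strand between Hoxd3 and Hoxd1, was also lower at 72 h, with a log2 fold change of -1.67 ± 0.19 (adjusted p = 2.45e-05). The genes that flank the cluster did not pass the test. Lnpk, on the 5′ side, changed by 0.11 ± 0.06 (adjusted p = 0.152) and Mtx2, on the 3′ side, by -0.07 ± 0.06 (adjusted p = 0.410). More 5′ HoxD genes were almost without counts: over 12 libraries, Hoxd10 gave 6 counts, Hoxd11 and Hoxd12 0, and Hoxd13 23.

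**Figure D2:**
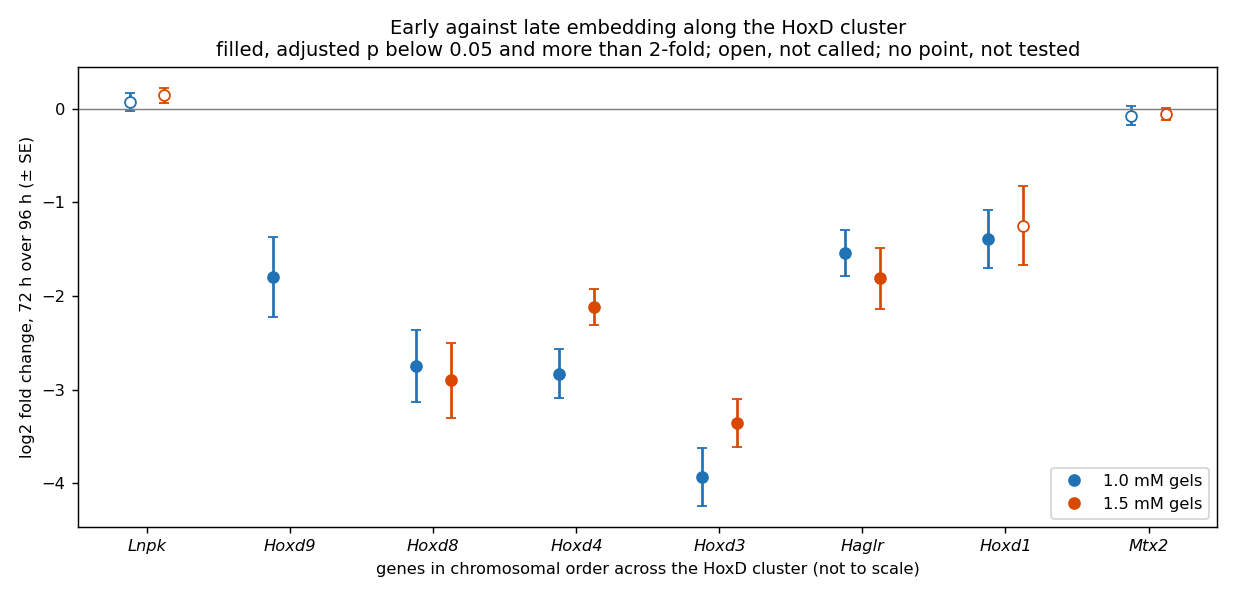
Log2 fold change of 72 h over 96 h embedding (± SE, 3 against 3 libraries) for genes in chromosomal order across the HoxD cluster, in 1.0 mM (blue) and 1.5 mM (orange) gels; filled points passed the test. The flanking genes Lnpk and Mtx2 lie near 0, and Hoxd3 is the lowest point in both gels, at -3.93 and -3.36.

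Whether the genes of a cluster changed in proportion was asked with the log2 ratio of the counts of a pair of genes within each library, which does not depend on how libraries are scaled. For each of 10 pairs, embedding times were exchanged within each gel in an exact two-sided permutation test of 400 assignments, whose smallest possible p is 0.005, and p-values were adjusted over the pairs. The log2 ratio of Hoxd1 to Hoxd3 was -1.70 ± 1.16 (SD, n = 6) at 72 h and -4.09 ± 0.45 at 96 h, a difference of 2.38 (exact p = 0.005, adjusted p = 0.025). Hoxd3 to Hoxd4 differed by -1.27, from 1.08 ± 0.48 at 72 h to 2.35 ± 0.21 at 96 h (exact p = 0.005, adjusted p = 0.025). Hoxd8 to Hoxd9 differed by -1.44, from -0.17 ± 0.81 to 1.27 ± 0.26 (exact p = 0.01, adjusted p = 0.025). In these pairs Hoxd3 was more reduced than either of its neighbours, and Hoxd8 more than Hoxd9. For Hoxd4 to Hoxd8 the difference was 0.27 (exact p = 0.445, adjusted p = 0.569) and for the end genes Hoxd1 to Hoxd9 it was -0.06 (exact p = 0.82, adjusted p = 0.82). With gel labels exchanged within embedding times, no pair among the 10 passed (adjusted p of at least 0.6). Ratios between HoxC genes rested on libraries at 0 and are not interpreted. Hoxd1 to Hoxd3 varied most in the 72 h libraries of 1.5 mM gels, at -0.53, -2.65 and -3.53.

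**Figure D3:**
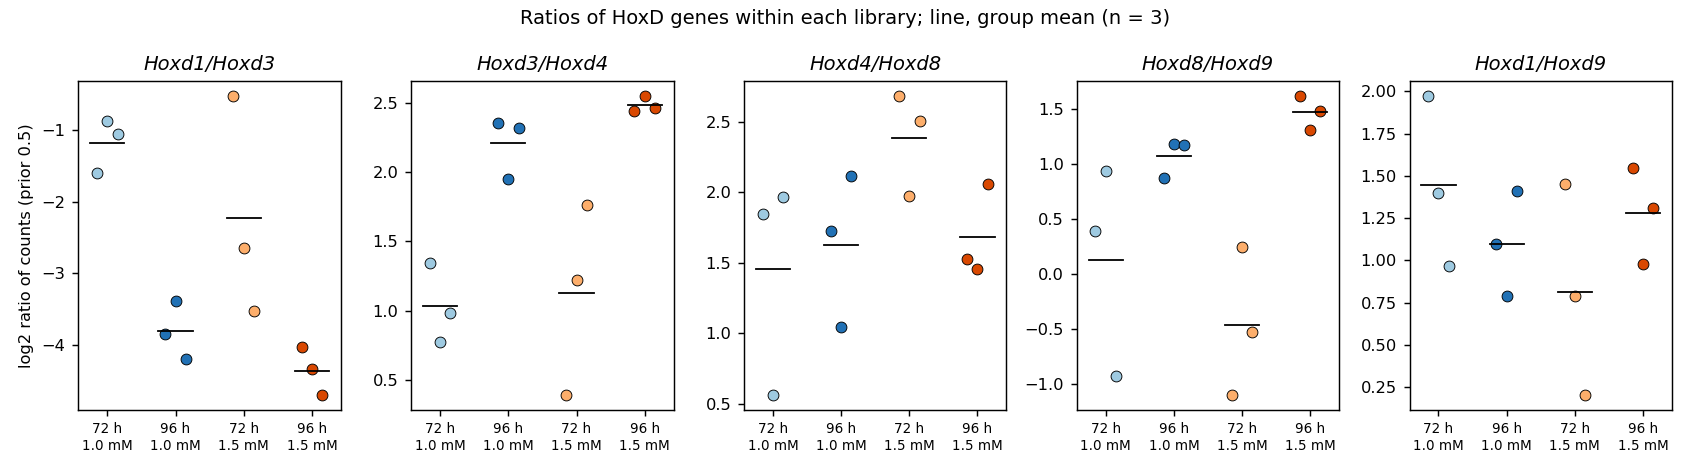
Log2 ratio of the counts of HoxD gene pairs in each library (prior count 0.5), by group; points are libraries and lines group means (n = 3). The Hoxd3 to Hoxd4 ratio lies between 0.39 and 1.76 at 72 h and between 1.95 and 2.55 at 96 h, whereas the Hoxd1 to Hoxd9 ratio overlaps between the times.

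Levels were compared between genes with FPKM, in which fragments are scaled to the length of the transcript and the size of the library. At 96 h in 1.0 mM gels Hoxd3 was at 7.88 ± 2.01 FPKM (SD, n = 3), Hoxd4 at 2.65 ± 0.31, Hoxd1 at 0.889 ± 0.227, Hoxd8 at 0.680 ± 0.288 and Hoxd9 at 0.370 ± 0.124. The libraries of Hoxd1 and Hoxd8 overlapped, as did those of Hoxd8 and Hoxd9, while Hoxd3 and Hoxd4 stood apart. At 72 h in the same gels, Hoxd3 was at 0.496 ± 0.202 FPKM, Hoxd1 at 0.344 ± 0.108 and Hoxd4 at 0.343 ± 0.066, and these 3 genes overlapped. Hoxd8 at 0.0859 ± 0.0320 and Hoxd9 at 0.106 ± 0.041 FPKM were lower and overlapped each other. The same order held at 96 h in 1.5 mM gels, with 5.93 ± 0.28 FPKM for Hoxd3, 1.74 ± 0.125 for Hoxd4, 0.504 ± 0.114 for Hoxd1, 0.420 ± 0.097 for Hoxd8 and 0.169 ± 0.053 for Hoxd9, where Hoxd1 and Hoxd8 overlapped but Hoxd8 and Hoxd9 did not. The 72 h means for 1.5 mM gels were 0.607 ± 0.304 FPKM for Hoxd3, 0.388 ± 0.075 for Hoxd4, 0.211 ± 0.117 for Hoxd1, 0.0921 ± 0.0117 for Hoxd9 and 0.0624 ± 0.0186 for Hoxd8 FPKM, where Hoxd1, Hoxd3 and Hoxd4 overlapped, as did Hoxd8 and Hoxd9. Of the summed FPKM of the 5 HoxD members, Hoxd3 made up 55.7 to 70.3% in the 96 h libraries and 26.0 to 58.9% in those at 72 h. That sum was 1.37 ± 0.27 FPKM (SD, n = 6) at 72 h and 10.6 ± 2.6 at 96 h. The corresponding sum of the 5 HoxC members was 0.0342 ± 0.0237 FPKM at 72 h and 0.513 ± 0.267 at 96 h.

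**Figure D4:**
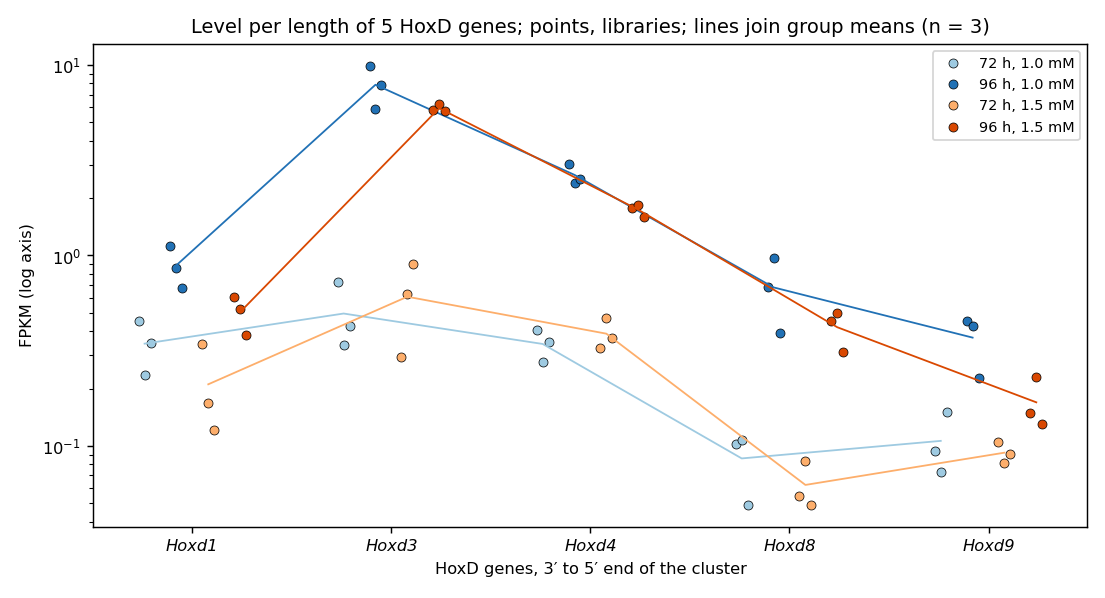
FPKM (log axis) of the 5 HoxD genes from the 3′ to the 5′ end of the cluster; points are libraries and lines join group means (n = 3). The 96 h groups peak at Hoxd3 with means of 7.88 and 5.93 FPKM, and the 72 h groups lie below 1 FPKM at every gene.

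Among the HoxC genes, Hoxc4, the 3′ gene of the cluster, had the most counts. Its libraries held 0, 0 and 1 counts at 72 h and 19, 19 and 18 counts at 96 h in 1.0 mM gels, then 0, 2 and 1 counts at 72 h and 4, 10 and 16 counts at 96 h in 1.5 mM gels. All 6 libraries at 72 h lay below all 6 at 96 h. Pooled, 4 counts against 86 gave a ratio of 96 h over 72 h of 19.5 (95% exact interval 7.34 to 73.1), and edgeR called Hoxc4 lower at 72 h across both gels (adjusted p = 0.000138) and in 1.0 mM gels (adjusted p = 0.00117). Its fitted fold change depends on the prior count and is not given as a size.

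Hoxc8, which acts in thoracic patterning, had 0 counts in all 6 libraries at 72 h. At 96 h it held 17, 6 and 10 counts in 1.0 mM gels and 0, 7 and 12 counts in 1.5 mM gels. Set against a floor of 3 counts over the 72 h libraries, Hoxc8 was 15.7-fold higher at 96 h. This value makes no allowance for counting error at 96 h and is not a lower limit. Hoxc6 gave 0, 3 and 0 counts at 72 h and 14, 10 and 1 counts at 96 h in 1.0 mM gels, and in 1.5 mM gels 0 in all 72 h libraries and 4, 0 and 11 counts at 96 h. Its pooled ratio of 96 h over 72 h was 12.1 (95% exact interval 3.85 to 61.1), although libraries overlapped between the times in both gels. Hoxc5 gave 0 in 5 of 6 libraries at 72 h and in 2 of 6 at 96 h, with 1 and 21 counts in all. Hoxc9 gave 4 counts over the 72 h libraries and 16 over the 96 h libraries, a ratio of 3.63 (95% exact interval 1.17 to 14.9). With 1.5 mM gels alone, Hoxc9 had 4 against 6 counts and no difference was detectable at this depth.

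These 4 genes were outside the main fit. With no filter on low counts, edgeR called 9 of the 10 members lower across both gels, where 1.66% of 31406 genes were called lower, the exception being Hoxc9 (adjusted p = 0.219). In that setting 9 of 10 were called lower in 1.0 mM gels (1.22% of 29070 genes) and 7 of 10 in 1.5 mM gels (1.19% of 28917 genes). Hoxc5, Hoxc9 and Hoxd9 were not called in 1.5 mM gels (edgeR adjusted p of 0.282, 0.868 and 0.288). With the filter, 6 of 6 tested members were called lower in 1.0 mM gels, of 15763 genes with 1.69% called lower. Here again the filter favours members that are high in the 96 h libraries, so the count is a description. Of 4 tested in 1.5 mM gels 3 were, namely Hoxd3, Hoxd4 and Hoxd8, of 15683 genes with 1.57% called lower. Hoxd8 passed the filter there through the 96 h libraries, so this count is a description as well. The comparison across both gels uses the same libraries as those within each gel and is not separate evidence. Among the 5′ HoxC genes Hoxc10 and Hoxc12 had 0 counts, Hoxc11 had 2 and Hoxc13 had 3 over 12 libraries, and the non-coding gene Hotair had 0. Near the 3′ side of HoxC, Smug1 changed by 0.11 ± 0.06 on the log2 scale across both gels (adjusted p = 0.184). The more distant Cbx5, a heterochromatin protein gene, was 0.26 ± 0.06 higher at 72 h (adjusted p = 0.00738), under the fold threshold.

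The concentration of the gel was not accompanied by a called difference in any member. At 72 h, 0 of 3 tested members were called in either direction (0.0% of 15563 genes in each) and 0 of 3 were at an unadjusted p under 0.05, against 6.9% of all genes. Hoxd3 differed between 1.5 and 1.0 mM by 0.29 ± 0.43 on the log2 scale, Hoxd4 by 0.17 ± 0.33 and Hoxd1 by -0.65 ± 0.45, and the libraries of each gene overlapped between the gels. At 96 h, 0 of 7 tested members were called (0.0% of 15861 genes in each direction), although all 7 values were below 0. The log2 differences of 1.5 over 1.0 mM there were -0.54 ± 0.15 for Hoxd4 (adjusted p = 0.299), -0.80 ± 0.27 for Hoxd1 (adjusted p = 0.379) and -1.02 ± 0.39 for Hoxd9 (adjusted p = 0.437) in edgeR. The other 4 were Hoxd3 at -0.29 ± 0.15, Hoxd8 at -0.61 ± 0.30, Hoxc4 at -0.87 ± 0.44 and Hoxc6 at -0.72 ± 0.88. Thus 3 of 7 members were at an unadjusted p under 0.05, against 9.95% of all genes in either direction.

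Across both embedding times 0 of 6 members were called for gel in edgeR (0.0061% of 16388 genes were called lower in 1.5 mM and 0.0% higher), with 3 of 6 at an unadjusted p under 0.05 against 12.7% of all genes. The interaction asks whether the effect of embedding time differed between gels, and 0 of 6 members were called (0.0% of 16388 genes in each direction). The unadjusted p was under 0.05 for 1 member, Hoxd4 (interaction 0.72 ± 0.32, adjusted p = 0.953 in edgeR), against 4.32% of all genes. DESeq2 and limma-voom also called 0 members in the comparisons of gel and in the interaction. A gel effect on these genes was thus not detectable with 3 libraries per group, which does not show that there was none.

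The HoxA and HoxB clusters were measured in the same libraries, and their genes give the nearest comparison. Across both gels, 5 HoxA genes (Hoxa2, Hoxa3, Hoxa4, Hoxa5 and Hoxa7) and 4 of 9 tested HoxB genes were called lower at 72 h, and 0 of either cluster higher. Among these HoxA genes the differences were smaller for Hoxa2 (-1.27 ± 0.11) and Hoxa3 (-1.47 ± 0.11) than further 5′. There, Hoxa4 was at -2.45 ± 0.22, Hoxa5 at -2.94 ± 0.28 and Hoxa7 at -3.01 ± 0.62. The value of Hoxa7 is uncertain, since its libraries overlapped between the times in 1.5 mM gels. HoxB genes of groups 1 to 3 and 5 to 6 were not called, with Hoxb1 at 0.16 ± 0.13 and Hoxb3 at -0.77 ± 0.07, while Hoxb8 was at -3.08 ± 0.31 and Hoxb9 at -5.62 ± 0.42. Within HoxD the lowest value was that of group 3.

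**Figure D5:**
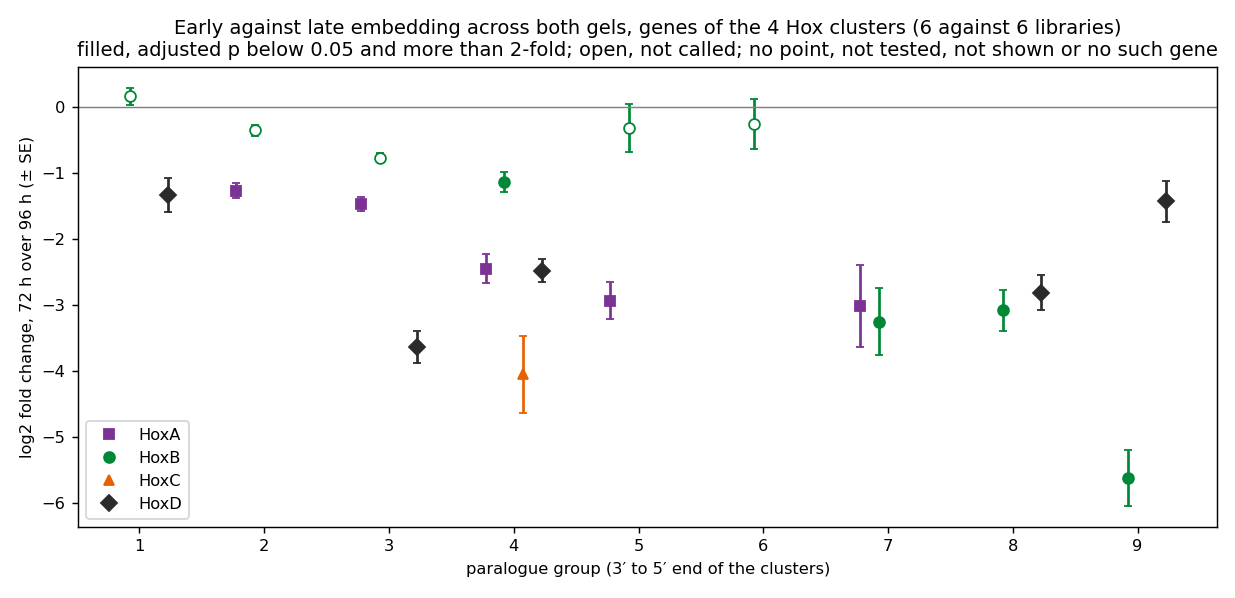
Log2 fold change of 72 h over 96 h embedding across both gels (± SE, 6 against 6 libraries) by paralogue group for genes of the 4 Hox clusters. Filled symbols passed the test. Hoxc4, Hoxa7, Hoxb7 and Hoxb9 had 72 h libraries at 0, and their positions depend on the prior count. Hoxd3 at -3.64 lies below Hoxa3 at -1.47 and Hoxb3 at -0.77, and Hoxd9 at -1.43 lies above Hoxb9 at -5.62.

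Paralogues were compared within each library by the same ratio test, with p-values adjusted over 8 pairs, of which 7 are given. These pairs were added after values had been seen. The adjustment does not account for that choice, so the p-values are given as a description. Relative to 96 h, Hoxd3 at 72 h was lower by a further 4.84-fold than Hoxa3 (log2 difference -2.27, exact p = 0.005, adjusted p = 0.008) and 7.88-fold than Hoxb3 (-2.98, exact p = 0.005, adjusted p = 0.008). Hoxd4 was more reduced than Hoxb4 (-1.32, exact p = 0.005, adjusted p = 0.008), and Hoxd1 more than Hoxb1 (-1.503, exact p = 0.005, adjusted p = 0.008). Hoxd9 was less reduced than Hoxb9 (3.82, exact p = 0.005, adjusted p = 0.008), where Hoxb9 had libraries at 0 and the size rests on the prior count. The differences of Hoxd4 to Hoxa4 (-0.04, exact p = 0.835) and Hoxd8 to Hoxb8 (0.36, exact p = 0.455) did not pass. For Hoxd4 and Hoxa4 the log2 ratio was 0.99 ± 0.25 (SD, n = 6) at 72 h and 1.04 ± 0.39 at 96 h.

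Genes that work with Hox proteins or act on their expression were taken as further lists. Of 9 cofactors of the Pbx, Meis and Pknox families, which bind DNA together with Hox proteins, 0 were called across both gels, although 3 were lower and 2 higher at adjusted p under 0.05 alone. Meis2 was -0.75 ± 0.08 (adjusted p = 9.92e-06) and Meis1 -0.40 ± 0.10 (adjusted p = 0.00981), both under the fold threshold. Of 9 tested genes that act on Hox expression, 1 was called, Cdx1, a caudal-type factor, at -1.67 ± 0.34 (adjusted p = 0.00207). Cyp26a1, which degrades retinoic acid, was 0.72 ± 0.09 higher at 72 h (adjusted p = 5.35e-05), and Rara, a retinoic acid receptor, was at -0.43 ± 0.05 (adjusted p = 4.54e-05), both under the fold threshold.

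Markers of cell types moved with embedding time as well. Of 7 somite markers, 5 were called lower at 72 h across both gels, among them Meox2 (-3.64 ± 0.22) and Meox1 (-1.72 ± 0.20), and their summed level was 201 to 451 CPM at 72 h and 570 to 840 CPM at 96 h. Of 6 pluripotent or germ-cell-like markers, 6 were called lower, with sums of 23.1 to 31.1 CPM at 72 h and 74.6 to 129.5 CPM at 96 h. Of 7 cardiac and anterior mesoderm markers, 6 were called higher at 72 h, with sums of 343 to 755 CPM at 72 h against 57.2 to 303 CPM at 96 h. Neural tube markers gave 1 of 6 called lower, presomitic mesoderm 1 of 4, posterior and neuromesodermal markers 1 of 4 lower and 1 higher, and endoderm and endothelium 0 of 6 and 0 of 5. No somite, cardiac, pluripotent or endoderm marker was at 0 in a whole group. The gastruloid axis markers T, Sox2, Cdx2, Tbx6, Meox1 and Foxc1 were detected in every group, and of these 6 Meox1 was called lower and T higher at 72 h. The part of these shifts in the Hox differences was not tested.

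For each tested member, the non-Hox genes with the most similar pattern over the 12 libraries were found among 10984 genes of at least 5 CPM. The measure was the root mean square difference of centred log2 CPM with a prior count of 2. This prior count shrinks the differences of members with few counts, so their matches depend on it. Hoxd3 was most like Meox2, a somite homeobox gene with means of 1.59 CPM in the libraries embedded at 72 h and 19.95 CPM in those embedded at 96 h, with a difference of 0.46 against a spread of 1.91 for Hoxd3 itself. Hoxd4 and Hoxd8 were both most like Dppa5a, a gene of pluripotent and germ cells at 6.05 and 37.0 CPM. The differences were 0.34 and 0.27, against spreads of 1.24 and 1.32 for Hoxd4 and Hoxd8 themselves. Hoxc4 was most like Cxcl12, a chemokine gene, with a difference of 0.49 against a spread of 1.35. Hoxd1 was most like Klf2 (0.36 against a spread of 0.83) and Hoxd9 most like Acss1 (0.39 against 0.74), which are loose matches. The other two genes were Sec1 and Meox1 for Hoxc4, Acss1 and Nanog for Hoxd1, Sec1 and Dppa5a for Hoxd3, Cxcl12 and Utf1 for Hoxd4, Utf1 and Sec1 for Hoxd8, and Chchd10 and Myc for Hoxd9. The 12 libraries share the split into early and late groups, and the similarity is given as a description.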

How the data were processed

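The authors trimmed reads with cutadapt 4.4 and aligned them to mm10 with STAR 2.7.10b and a customized Ensembl 102 annotation. The deposited table of raw counts holds whole reads per gene; the strand setting of the counting was not given in the sources used here. The deposited FPKM values come from Cufflinks 2.2.1.3, run by the authors for stranded libraries. Columns of the authors' own comparisons (fold changes and p-values) were not used. Of 55141 genes, 36 mitochondrial ones were left out, as the study did for its analyses; 3 had no symbol.

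Counts were tested with edgeR 4.0.16 (quasi-likelihood test, TMM scaling, filterByExpr with a minimum count of 10 and total of 15), on the compared groups or all 12 libraries, with Benjamini-Hochberg adjustment over all genes. A gene was called at adjusted p under 0.05 and an absolute log2 fold change over 1, for 72 h over 96 h and 1.5 mM over 1.0 mM. CPM were TMM-scaled. The fits were tested on simulated data first. Replicates were separate samples by their labels, and the paper states that all its replicates were biological. No 2 replicates agreed within sampling noise (chi-square per degree of freedom of 9.23 or more). Alternatives were DESeq2 1.42.0, limma 3.58.1 (voom, or log2 of FPKM plus 1 or 0.1), other scalings and filters, a replicate block and each library left out. Every member was named, beside fixed lists of Hox genes, neighbours, cofactors, regulators and markers, and the 3 most similar genes. Members and lists were chosen with earlier results of these data known; the paralogue ratios were added after seeing values. Some genes of the fixed lists are not reported here. No column of per-sample values was left unused. File starts plus 1 equalled those of GENCODE M21 for 96.4% of shared genes.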

Additional observations from a re-analysis of the deposited data

How the results depend on the processing

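The direction of the embedding time difference stayed lower at 72 h for every tested member under all alternatives run. The number of members called moved by over 1.5 times in these settings. With limma on log2(FPKM + 1), filtered or not, 2 were called in 1.0 mM gels, 1 in 1.5 mM gels and 2 across both gels, since a pseudocount of 1 exceeds most of these levels. In 1.5 mM gels, no filter on low counts gave 7 and all 12 libraries in 1 edgeR fit gave 5. Leaving out 1 library at a time gave 4 to 6 members in 1.0 mM gels, 3 to 4 in 1.5 mM gels and 6 to 8 across both. The number of members that pass the filter also changes between these settings, with 6 tested across both gels in the main fit. The share of all genes called in each setting is not given here, so these counts are descriptions. Replicate numbers were not taken as pairs, since in each comparison of groups 1 of 3 same-numbered pairs correlated at 0.1 or less. However, all 12 libraries correlated best, on average, with their own number. Over all groups, 13 of 18 same-numbered pairs correlated above 0.1, against 1 of 36 other pairs. Libraries of the same number thus shared variation that the main fits and the permutation tests did not model. With the replicate block, 6 members were called in 1.0 mM gels, 4 in 1.5 mM gels, where Hoxd1 passed, and 6 across both, with 0 for gel and the interaction. Of the 10 ratios by embedding time, 6 had an exact p under 0.05, and 0 with any replicate number left out, where 36 assignments allow no p below 0.0556. The 6 include Hoxc4 to Hoxc5, Hoxc8 to Hoxc9 and Hoxc4 to Hoxc9, which rested on libraries at 0 and are not interpreted.

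Signs changed in values that had not passed a test. For gel at 72 h, leaving out single libraries gave -0.046 to 0.82 for Hoxd3 and -0.055 to 0.47 for Hoxd4, and for gel across embedding times -0.22 to 0.063 for Hoxd3. For the interaction they gave -0.48 to 0.46 for Hoxd1 and -0.47 to 0.086 for Hoxd8, for which FPKM gave 0.20 (pseudocount 1, filtered or not) and 0.35 (0.1). On log2(FPKM + 0.1), Hoxd4 to Hoxd8 by embedding time was -0.44 and Hoxd8 to Hoxd9 by gel 0.076. Without 1 replicate number, Hoxd1 to Hoxd9 by embedding time ranged from -0.28 to 0.30, Hoxd8 to Hoxd9 by gel from -0.32 to 0.037, Hoxd4 to Hoxa4 from -0.26 to 0.23 and Hoxd8 to Hoxb8 from -0.14 to 0.81. The cause was not tested. Without replicate 1 of the 72 h group in 1.5 mM gels, 4 members were called by embedding time in those gels and 8 across both. Across both gels the main fit tested 6 members, so the count of 8 includes members that newly passed the filter. Depth limits the HoxC genes most.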
